A study of Rattus norvegicus with 6 samples.

Results

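Expression of 10 genes of glycolysis was examined in the rat colon, with attention to Pgk1, the gene against which the study read its real-time PCR. The members were Slc2a1, Hk1, Hk2, Gpi, Pfkl, Aldoa, Tpi1, Pgk1, Eno1 and Ldha, and their probes were found by matching the accession of each array probe to the RefSeq genes of the rat. Of the 30367 probes on the array 12 read a member, and of the 15162 genes that could be named 10 were members. All 12 probes were present in the normalized table that the authors deposited and were well above background on all 6 arrays.

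Colon RNA of 3 S.LEW congenic rats, called C1 to C3, and of 3 S rats, called S1 to S3, was labeled in 1 color and hybridized to Agilent oligonucleotide arrays, 1 array per rat. The S rat is the inbred Dahl salt-sensitive strain (SS/Jr), and the S.LEW(10)x12x2x3x5 congenic rat has the S background with a short segment of Lewis chromosome 10, so the strains differ in that segment and no rat without the S background was examined. All rats were male, ate a low salt diet and received the colon carcinogen azoxymethane (AOM) intraperitoneally at 15 mg/kg once a week for 2 weeks from 6 weeks of age, and the colon was taken at 30 weeks of age, so that no comparison with rats free of AOM was possible. The labels name colon tissue with AOM-induced tumors and do not say how much of each sample was tumor.

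Glycolysis splits glucose into pyruvate and yields ATP without oxygen, and lactate dehydrogenase turns pyruvate into lactate. Colonocytes draw much of their energy from the oxidation of short-chain fatty acids made by bacteria, whereas many tumors take up glucose and release lactate. The genes of the pathway are known targets of the hypoxia-inducible factor HIF-1, and because the enzymes of the lower part of the pathway are abundant in most cells, Gapdh and Pgk1 are widely used as reference genes.

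The core of the hypoxia response element, searched here as ACGTG and GCGTG on both strands, was looked for in the 250 bases before each transcription start listed by RefSeq for GRCr8. Of 33469 such windows of all genes, 36.7% held at least 1 match, 16.6% ACGTG and 25.9% GCGTG. A window was at hand for 9 of the 10 members, all but Pgk1, and 7 of their 13 windows, belonging to 6 genes, held a match. The windows of 3 members are shown because their genes behaved differently on the arrays: Tpi1 had the highest log2 fold change of the members, Slc2a1 had non-overlapping strains, and Ldha had nearly the same signal in every rat. Capitals mark the matches, and the windows are Tpi1 at chr4:159305089-159305338 (minus strand), Slc2a1 at chr5:138002272-138002521 (plus strand) and Ldha at chr1:106507842-106508091 (plus strand), each written 5′ to 3′.
Tpi1: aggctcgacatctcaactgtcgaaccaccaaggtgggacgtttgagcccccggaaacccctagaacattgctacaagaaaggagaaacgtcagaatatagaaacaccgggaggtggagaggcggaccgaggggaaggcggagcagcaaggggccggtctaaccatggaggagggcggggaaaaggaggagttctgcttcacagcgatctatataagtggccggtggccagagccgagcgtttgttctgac
Slc2a1: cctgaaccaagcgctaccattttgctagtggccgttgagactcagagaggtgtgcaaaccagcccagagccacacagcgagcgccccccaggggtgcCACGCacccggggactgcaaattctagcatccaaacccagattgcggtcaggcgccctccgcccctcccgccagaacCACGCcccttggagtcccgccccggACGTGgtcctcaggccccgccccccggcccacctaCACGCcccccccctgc
Ldha: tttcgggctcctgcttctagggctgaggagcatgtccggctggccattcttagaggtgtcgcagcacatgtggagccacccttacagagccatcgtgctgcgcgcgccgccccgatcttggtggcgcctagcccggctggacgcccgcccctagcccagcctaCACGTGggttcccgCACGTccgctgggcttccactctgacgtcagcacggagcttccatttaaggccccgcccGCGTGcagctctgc
The Tpi1 window held no match. The Slc2a1 window held 4, beginning at bases -153, -76, -51 and -16 counted back from the start site. The Ldha window also held 4, at -87, -86, -73 and -14, of which the matches at -87 and -86 overlap on opposite strands within CACGTG. A match of this kind is a description of the letters and was not read as a binding site.

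The labeled tissue was checked first. Of 10 markers of colon epithelium 8 had a tested probe, all well above background on all 6 arrays, with a mean log2 signal of 13.84 to 14.27 in the S.LEW rats and 13.17 to 13.41 in the S rats. S2 stood apart from the other S rats, since its array had a correlation of 0.967 to 0.976 with those of the S.LEW rats, compared with 0.900 with S1 and 0.937 with S3. The 5 tested lymphoid markers, of 10, averaged 7.36 to 7.57 in the S.LEW rats and 7.49 in S2 but 12.54 in S1 and 12.40 in S3, and were well above background on all 6 arrays. The 8 smooth muscle markers ran the other way, at 15.38 to 15.61 in the S.LEW rats, 15.71 in S2, 13.37 in S1 and 14.36 in S3. Of 9 striated muscle markers 7 were tested, at 6.93 to 7.33 in the S.LEW rats and, for S1, S2 and S3, at 7.71, 9.47 and 8.74. Only 3 of the 7 were well above background on all 6 arrays, and Myh1 and Mybpc1 were so on no S.LEW array. Acta1 and Ckm were the 2 whose mean was higher in the S.LEW rats. Adipocyte markers (5 of 6 tested) were at 7.0 to 8.02 in the S.LEW rats and 5.97 to 6.72 in the S rats, while markers of proliferating cells (4 of 6) were at 9.86 to 10.67 and 9.90 to 11.08, macrophage markers (6 of 6) at 6.74 to 7.42 and 6.61 to 7.49, and red blood cell markers (4 of 5) at 8.66 to 9.26 and 8.29 to 8.72. The macrophage markers did not move together. Of the 6, 3 had a log2 fold change (S.LEW minus S) above 0, among them Cd163 (1.85) and Mrc1 (1.03), while Csf1r had -1.42. In such bulk tissue, fewer cells of a type and less RNA per cell cannot be told apart. Because S2 stood apart, the fold changes of the members and the counts of the gene lists are also given without it.

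Pgk1 was nearly level between the strains. It encodes phosphoglycerate kinase, which makes the first ATP of the pathway, and its single probe had log2 normalized signals of 13.94, 13.97 and 14.14 in C1, C2 and C3, compared with 13.92, 14.12 and 13.92 for S1, S2 and S3. C3 and S2 were the high arrays, and the strains overlapped through S2, since S1 and S3 lay just below the S.LEW rats. The mean was 14.02 ± 0.106 (SD, n = 3) for the S.LEW strain and 13.99 ± 0.116 (SD, n = 3) for S. The log2 fold change was 0.026 (SE 0.17, limma adjusted p = 0.947). The 95% confidence interval ran from -0.38 to 0.44, or from 0.766-fold to 1.35-fold, so these arrays are compatible with a strain difference anywhere within that range. Without S2 the log2 fold change was 0.093, and with the slide as a block, described below, it was -0.053. It was also below 0 without C3 (-0.034), without S1 (-0.0079) or without S3 (-0.0065).

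**Figure D1:**
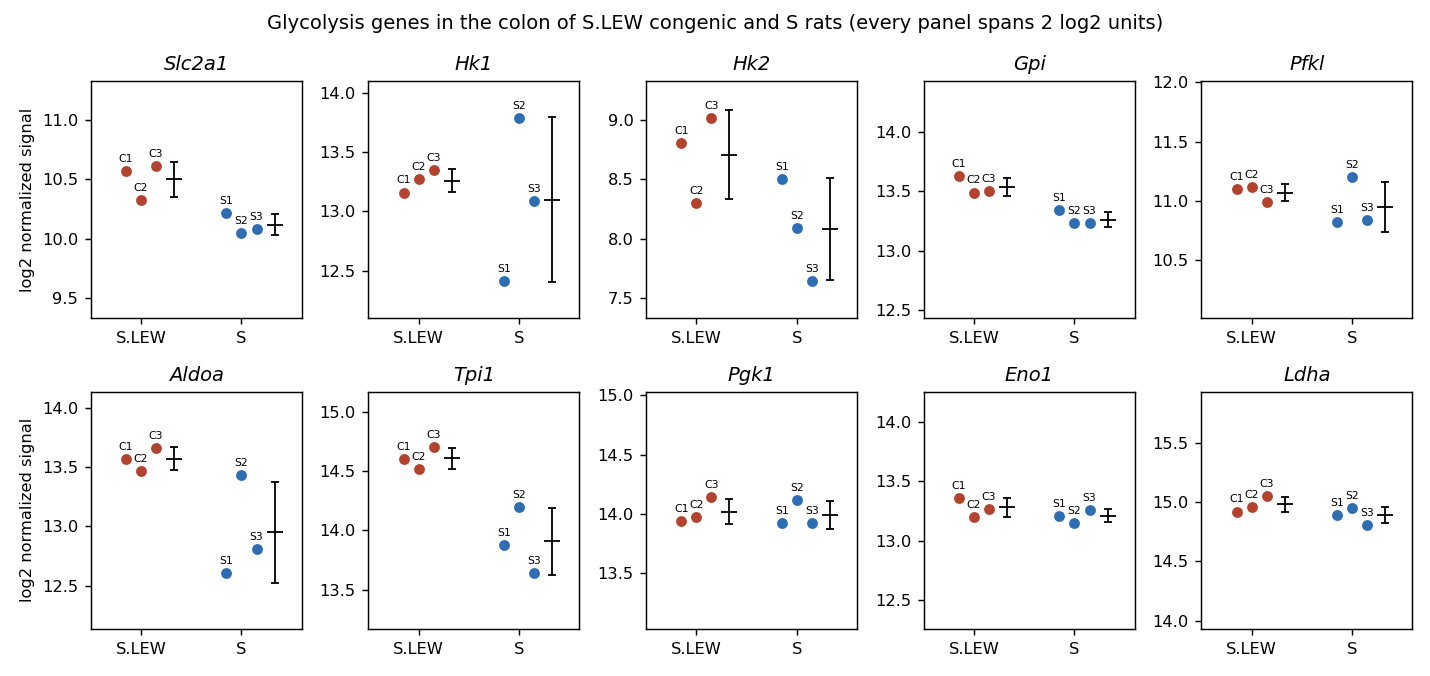
Log2 normalized signal (vertical axis) of the brightest probe of each member on every array, for S.LEW rats (C1 to C3, red) and S rats (S1 to S3, blue). Each point is 1 rat, black marks are the mean ± SD of 3 rats, and every panel spans the same 2 log2 units. Pgk1, Eno1 and Ldha lie nearly flat, while Tpi1, Aldoa, Gpi and Slc2a1 have every S.LEW rat above every S rat and S2 is the high S rat for Hk1, Aldoa and Tpi1.

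Over the 6 arrays the SD of Pgk1 was 0.100 log2 units and its range 0.214. Its SD lay at percentile 2.22 of all tested probes, whose median SD was 0.383, and at percentile 4.58 of the 1135 probes within 1 log2 unit of its mean signal, whose median SD was 0.262. Pgk1 ranked 3 of 10 members by SD, after Eno1 (0.0721) and Ldha (0.0778), and 3 of the 26 glycolytic enzymes with a tested probe. Next came Pfkl (0.156) and Gpi (0.163), then Slc2a1 (0.239), and the SD was above 0.4 for Tpi1 (0.427), Aldoa (0.438), Hk1 (0.453) and Hk2 (0.501). Values scaled to the 75th percentile of each array, in place of quantile normalization, gave an SD of 0.121 and a log2 fold change of 0.064 for Pgk1.

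For glucose uptake the member Slc2a1 had the higher signal in the S.LEW rats, but the difference failed both the adjusted and the unadjusted threshold. Other glucose transporters, given below, went in both directions. Slc2a1 encodes GLUT1, the basal glucose transporter, and read 10.57, 10.33 and 10.61 in the S.LEW rats against 10.22, 10.05 and 10.08 in the S rats. All S.LEW rats were above all S rats, with S1 nearest to C2. The log2 fold change was 0.39 (SE 0.17, limma adjusted p = 0.399), or 1.31-fold, and 0.36 without S2.

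The hexokinases Hk1 and Hk2, which trap glucose as glucose 6-phosphate, varied among rats of the same strain. Hk1, the isozyme of most tissues, read 13.16, 13.27 and 13.35 in the S.LEW rats and 12.41, 13.79 and 13.09 in the S rats, so that S1 was the lowest array and S2 the highest. Its log2 fold change was 0.17 (SE 0.36, adjusted p = 0.830), 0.52 without S2 and -0.18 without S1. Hk2, the isozyme often raised in tumors, read 8.81, 8.30 and 9.02 against 8.50, 8.09 and 7.64. S1 was above C2, so the strains overlapped, and the log2 fold change was 0.63 (SE 0.30, adjusted p = 0.410) with all arrays and 0.64 without S2.

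At the next pair of steps Gpi separated the strains and Pfkl did not. Gpi, glucose-6-phosphate isomerase, read 13.63, 13.49 and 13.50 in the S.LEW rats and 13.34, 13.23 and 13.23 in the S rats. The strains did not overlap, and the SD within each strain was below 0.08, but the log2 fold change was 0.27 (SE 0.16, adjusted p = 0.468), or 1.21-fold, and 0.26 without S2. Pfkl, the liver-type phosphofructokinase at the committed step, had a pair of probes. The brighter one read 11.10, 11.12 and 10.99 against 10.82, 11.20 and 10.84, with S2 the highest of all arrays, and the dimmer one 10.77 to 11.16 against 10.37 to 11.14. The log2 fold change of the brighter probe was 0.12 (SE 0.19, adjusted p = 0.763) and that of the dimmer probe 0.31 (SE 0.27, adjusted p = 0.587), and they were 0.24 and 0.56 without S2.

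Aldoa and Tpi1, at the triose steps, were the members whose confidence interval lay above 0. Aldoa encodes the aldolase that cleaves fructose 1,6-bisphosphate, and it read 13.57, 13.47 and 13.66 in the S.LEW rats and 12.61, 13.43 and 12.81 in the S rats. S2 lay just under C2, and S1 and S3 lay well below all other arrays. The log2 fold change was 0.62 (SE 0.25, 95% confidence interval 0.0098 to 1.23, limma adjusted p = 0.382), or 1.54-fold, and it was 0.86 without S2. Tpi1, triosephosphate isomerase, read 14.60, 14.52 and 14.70 against 13.88, 14.20 and 13.64 at its brighter probe. All S.LEW rats were above all S rats, S2 again being the nearest. The log2 fold change was 0.70 (SE 0.21, adjusted p = 0.309), or 1.63-fold. The dimmer Tpi1 probe read 13.46 to 13.52 in the S.LEW rats and 12.69 to 13.03 in the S rats, also without overlap and with a log2 fold change of 0.67 (SE 0.18, adjusted p = 0.276), or 0.78 without S2.

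For Eno1 and Ldha, the members at the last steps, the strains also lay close together, unlike for Pklr, given below. Eno1, the enolase of most tissues, read 13.36, 13.20 and 13.27 in the S.LEW rats and 13.21, 13.15 and 13.26 in the S rats. The log2 fold change was 0.068 (SE 0.16, adjusted p = 0.847). Ldha, the lactate dehydrogenase subunit that favors lactate formation, read 14.92, 14.96 and 15.05 against 14.89, 14.95 and 14.81, a log2 fold change of 0.092 (SE 0.16, adjusted p = 0.790). In both genes the strains overlapped. Their 95% confidence intervals, -0.32 to 0.46 for Eno1 and -0.29 to 0.48 for Ldha, both included 0. Without S2 the log2 fold changes were 0.040 for Eno1 and 0.12 for Ldha.

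**Figure D2:**
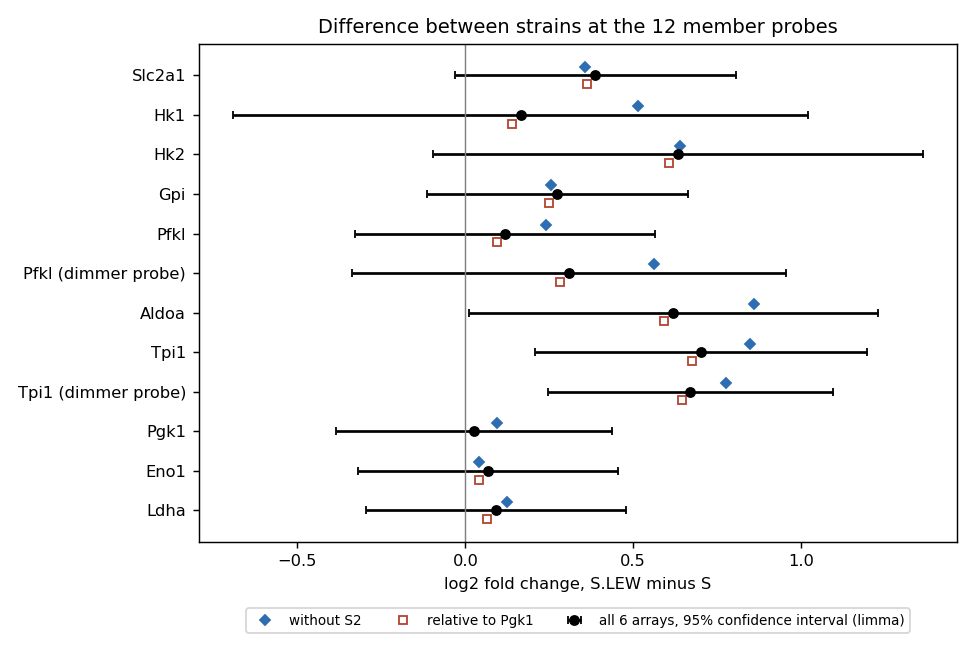
Log2 fold change of S.LEW minus S rats (horizontal axis) at the 12 member probes (vertical axis), with its 95% confidence interval from limma on all 6 arrays (black), the value without S2 (blue diamonds) and the value relative to Pgk1 (red open squares). The intervals of both Tpi1 probes and of Aldoa lie above 0, those of the other probes include it, and leaving out S2 moves Hk1, Aldoa and the dimmer Pfkl probe most.

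Over the members together, the log2 fold change was above 0 in 10 of 10 genes, compared with 51.3% of all tested probes, and the median was 0.22 compared with 0.014 over all probes. None of the 10 reached an adjusted p under 0.05 in limma (0.00% of all 23997 probes did, the smallest adjusted p being 0.0843). At an unadjusted p under 0.05, 2 of the 10 were higher in the S.LEW rats, Tpi1 and Aldoa, and none was lower, where 8.58% of all probes were higher, 4.40% were lower and 13.0% lay under it in either direction. The 2 became 1 without C1 or without C3, and 0 without S3. In 4 of 10 members, Tpi1, Aldoa, Gpi and Slc2a1, every S.LEW rat was above every S rat, as in 12.4% of all probes. No member differed 2-fold at that p, as 5.58% of all probes did. An exact two-sided permutation test of 3 rats against 3 cannot give a p below 0.1, which these 4 genes reached (p = 0.1 each, n = 3 per strain).

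S2 was above S1 and S3 in 6 of 10 members, a share near the 47.5% of all probes, with a gap to the mean of S1 and S3 of 1.05 log2 units for Hk1, 0.72 for Aldoa, 0.44 for Tpi1, 0.37 for Pfkl, 0.20 for Pgk1 and 0.10 for Ldha. S1 and S3 were the arrays with lymphoid marker means of 12.54 and 12.40 and smooth muscle means of 13.37 and 14.36, given above. Colon epithelium markers differed by strain, with means of 13.84 to 14.27 in the S.LEW rats and 13.17 to 13.41 in the S rats, S2 included. Their log2 fold change was above 0 in 8 of 8, and 7 were higher at an unadjusted p under 0.05 in limma (8.58% of all probes were). The part of any of these cells in the result was not tested. Without S2, Tpi1 (0.85, limma adjusted p = 0.0231) and Aldoa (0.86, adjusted p = 0.0220) passed the adjusted threshold, as did 23.1% of all probes. Gpi, Slc2a1, Hk2, Eno1 and Ldha had S2 within 0.1 log2 units of the mean of S1 and S3.

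**Figure D3:**
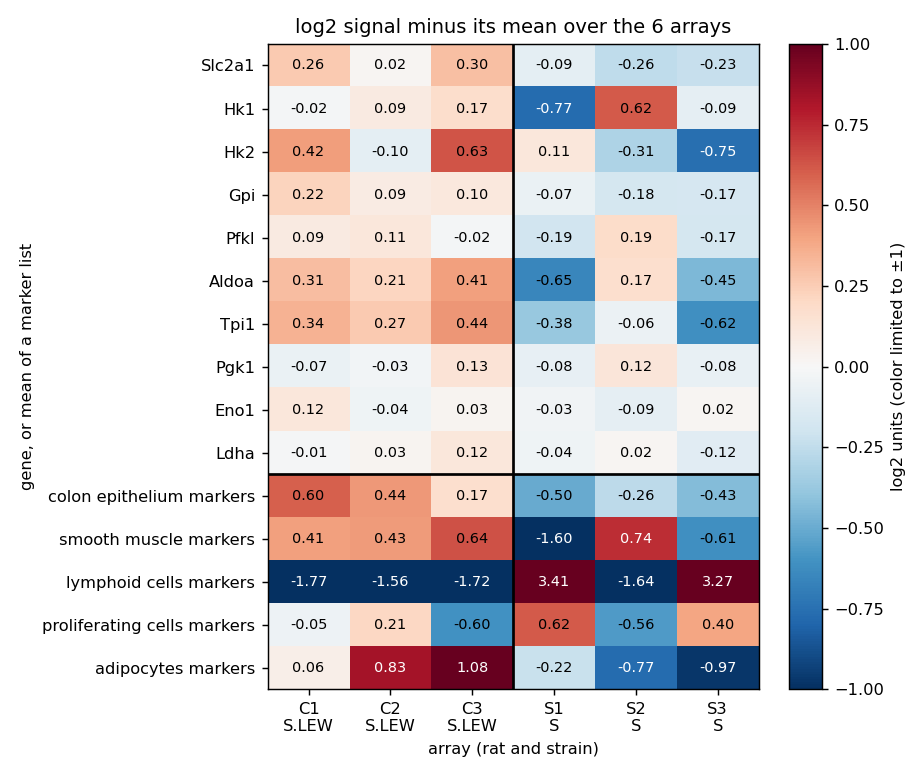
Log2 signal of each member (upper 10 lines) and mean log2 signal of 5 lists of marker genes (lower 5 lines) on each of the 6 arrays (horizontal axis), minus the mean of that line over the 6 arrays. Color is limited to ±1 log2 unit and the value is written in each cell. Lymphoid markers are high in S1 and S3 alone, the arrays in which smooth muscle markers, Aldoa and Tpi1 are low, and the line of Pgk1 is nearly white.

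Arrays with the same scan date were taken to lie on the same slide, since the sample labels name none. On that reading both strains shared only slide 1, which held C1 and all S rats, while C2 and C3 lay on slide 2. With the slide as a block the comparison rests on C1 for the congenic strain, and no member lay at an unadjusted p under 0.05 (4.59% of all probes did). The log2 fold changes of Tpi1 and Aldoa were then 0.69 and 0.62 (adjusted p = 0.818 for each).

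Among 20 common reference genes with a tested probe, of 22 listed, Pgk1 had the log2 fold change nearest to 0 and ranked 2 by SD over the arrays. Ppia and Hprt1, a peptidyl-prolyl isomerase and a purine salvage enzyme, had SDs of 0.102 and 0.126. Gapdh, the glycolytic enzyme just before Pgk1, had an SD of 0.174 and a log2 fold change of 0.28 (SE 0.17, adjusted p = 0.470) at its brightest probe, while its other probes had 0.54 (SD 0.376) and 0.32 (SD 0.189). At the wide end stood Tuba1a (0.690), the transferrin receptor gene Tfrc (0.689) and B2m (0.539), a subunit of MHC class I. The log2 fold change was -0.69 for B2m and 0.73 for Tfrc, and in 8 of the 20 genes it was 0.25 or more in either direction. Sdha, a subunit of succinate dehydrogenase, was the single listed reference gene at an unadjusted p under 0.05, at 0.45 (adjusted p = 0.361). Without S2, 3 of the 20 passed the adjusted threshold, compared with 23.1% of all probes.

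**Figure D4:**
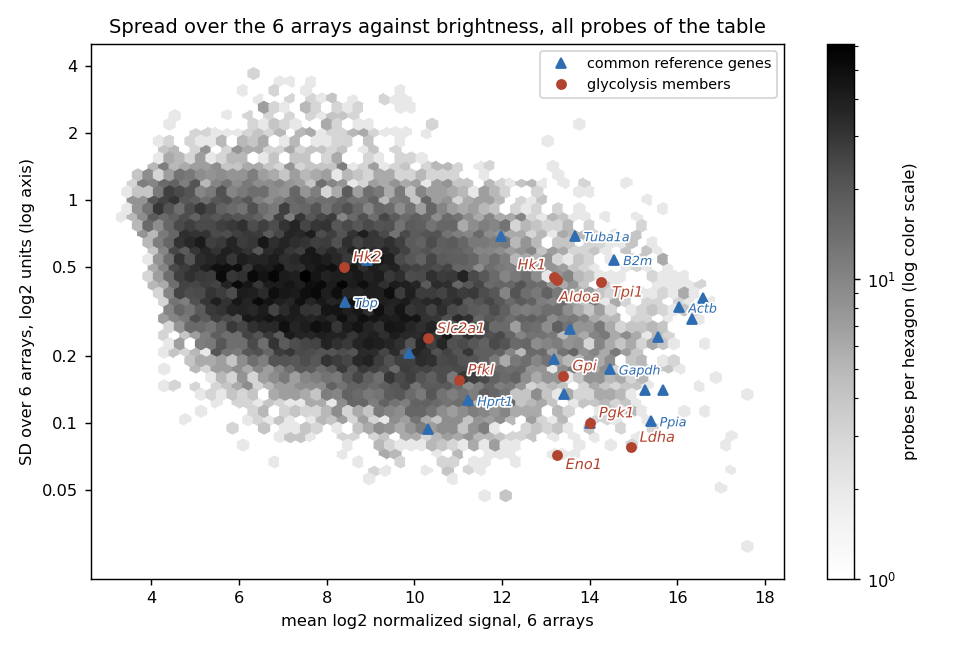
SD over the 6 arrays (vertical, log axis, log2 units) against mean log2 normalized signal (horizontal axis) for all 23997 probes of the table, shaded by the number of probes per hexagon, with the 10 members (red circles) and 20 common reference genes (blue triangles, among them Pgk1). Pgk1, Eno1 and Ldha lie at the lower edge of the cloud at their brightness, with SDs of 0.100, 0.0721 and 0.0778, and Hk1, Hk2, Aldoa and Tpi1 lie between 0.427 and 0.501.

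Reading the members relative to Pgk1 on the same array changed their log2 fold changes little, but Gpi no longer separated the strains. With Pgk1 and then its own mean subtracted, Gpi was at -0.03 in C3 and 0.02 in S1. The SE of its log2 fold change was 0.20, compared with 0.16 before. Tpi1, Aldoa and Slc2a1 still had every S.LEW rat above every S rat. The share of all probes that did so relative to Pgk1 was not computed, and it was 12.4% before the subtraction. The log2 fold changes became 0.68 for Tpi1, 0.59 for Aldoa, 0.61 for Hk2, 0.36 for Slc2a1, 0.25 for Gpi, 0.14 for Hk1, 0.093 for Pfkl, 0.066 for Ldha and 0.042 for Eno1. Hk1 turned to -0.17 without S1, and Eno1 to -0.038 without C1 and -0.053 without S2. Tpi1 and Aldoa were again the 2 members at an unadjusted p under 0.05 (12.2% of all probes), and the adjusted p values were 0.317 and 0.394. The reference of the real-time PCR bears most on Mbd2, the methyl-CpG binding protein gene that the study read relative to Pgk1. After subtraction of Pgk1 and of its own mean, Mbd2 was at 0.53, 0.24 and -0.12 in C1, C2 and C3, compared with -0.06, -0.52 and -0.09 for S1, S2 and S3. C3 lay below S1 and S3, so the strains overlapped. Mbd2 alone did not overlap between the strains, and Pgk1 was highest in C3. Relative to Pgk1 the log2 fold change of Mbd2 was 0.44 (1.36-fold, exact two-sided permutation p = 0.3, n = 3 per strain), close to 0.47 for Mbd2 alone. It was 0.29 without S2. The study itself reported higher Mbd2 in the S.LEW colon on its arrays and, in more rats, by real-time PCR. Set against each of the 20 reference genes in turn, the log2 fold change of Mbd2 ran from -0.26 with Tfrc to 1.16 with B2m. The strains, which did not overlap for Mbd2 alone, stayed apart with 10 of the 20. The share for other genes set against these references was not computed.

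The profiles over the 6 arrays most like that of Pgk1 were those of Tsen54, a subunit of the tRNA splicing endonuclease, and Aamp. Their root mean square differences from Pgk1, each gene centred on its own mean, were 0.0228 and 0.0340 log2 units among 12403 genes. The nearest member was Ldha, at 0.0579, and the farthest was Hk2, at 0.440.

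In the wider pathway the shares of genes called were read against those of all probes at the same unadjusted p, 8.58% higher and 4.40% lower. Of 29 glycolytic enzymes and isozymes, members included, 26 had a tested probe, 3 were higher at an unadjusted p under 0.05, none was lower, and the median was 0.16. The third beside Tpi1 and Aldoa was Pklr, the pyruvate kinase of liver and red cells, with 9.62 to 9.73 in the S.LEW rats and 8.11 to 9.24 in the S rats (0.90, adjusted p = 0.342). Of the 12 tested glucose transporters and lactate carriers, of 14, 3 were higher and 2 lower, with a median of 0.39. Slc16a3, which exports lactate, was lower in the S.LEW rats, at 8.38 to 8.71 against 9.23 to 10.18 (-1.26, adjusted p = 0.249), as was Slc2a6 (-0.78). Slc2a4, the insulin-responsive glucose transporter, read 11.77 to 12.16 in the S.LEW rats but, for S1, S2 and S3, 9.48, 11.76 and 9.93 (1.57, adjusted p = 0.358), a pattern in which S2 was level with the S.LEW rats. Bsg, the chaperone of the lactate carriers, and Slc2a8 had 0.72 and 0.54.

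Of 22 tested regulators and branches, of 25, 4 were higher and 2 lower, with a median of 0.22. Pfkfb4, which sets the level of the phosphofructokinase activator fructose 2,6-bisphosphate, read 8.18 to 8.36 in the S.LEW rats and 6.50 to 7.49 in the S rats (1.26, adjusted p = 0.244). Pdk2, a kinase that turns off pyruvate dehydrogenase, had 1.05, and 2 subunits of the dehydrogenase complex, Dlat and Pdhb, had 0.71 and 0.65. Gckr, the glucokinase regulator, had no S.LEW array well above background, and the measured mean of the S rats was at least 1.86-fold higher (limma adjusted p = 0.283). The bound sets the S mean against, on each S.LEW array, the probe's own signal or the dimmest signal counted as well above background there, whichever was higher.

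Of 8 tested genes of gluconeogenesis, of 9, 3 were higher and none lower, with a median of 0.52. They were Me1 (1.27, adjusted p = 0.268), the mitochondrial phosphoenolpyruvate carboxykinase Pck2 (1.03, adjusted p = 0.308) and the muscle-type fructose bisphosphatase Fbp2 (0.83, adjusted p = 0.276). Me1, although listed here, is the cytosolic malic enzyme, which turns malate into pyruvate and yields NADPH and is not itself a step of gluconeogenesis. Of 22 tested genes of the hypoxia and HIF-1 response, of 24, 3 were higher and 1 lower, and the median was 0.015, compared with 0.014 over all probes. Ndrg1, a stress response gene, read 11.86 to 11.94 against 11.09 to 11.27 (0.72, adjusted p = 0.247). The carbonic anhydrases Car12 and Car9 had 1.48 and 1.01, and the histone demethylase Kdm3a had -0.51. None of the genes of these lists passed the adjusted threshold with all 6 arrays. Without S2, where 23.1% of all probes passed it, 5 of the 26 glycolytic enzymes, 6 of the 12 transporters and carriers, 5 of the 22 regulators and branches, 4 of the 8 genes of gluconeogenesis and 5 of the 22 genes of the hypoxia response did.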

How the data were processed

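Per the labels, the authors read the single-color arrays with Agilent Feature Extraction 11.0.1.1. The deposited scanner files give a background-corrected intensity for each of 42877 spots, with medians of 214 to 594 per array, 73.8% to 87.6% of spots well above background and no saturated spot. The authors quantile-normalized these in GeneSpring and kept probes detected on at least 3 of 6 arrays. The deposited log2 values of 23997 probes are the values used, and they correlated at 0.9999 or more with scanner intensities normalized here in the same way.

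Probes were named by matching accessions to the RefSeq genes of GRCr8 (17997 of 30367 probes, 14659 of those tested), and a gene was read by its brightest probe. limma 3.58.1 (R 4.3.3, lmFit then eBayes) compared the strains without covariates, and p-values were adjusted by Benjamini-Hochberg over the 23997 probes. The other values used pandas 2.3.3 and numpy 2.4.6, and plots matplotlib 3.10.9. The fit was tested on simulated data. With 3 arrays per strain, their number limits the precision. The limma p-values set each difference against the spread between these rats, drawn toward a value estimated from all probes. For steady genes such as Eno1 and Ldha the SE is therefore larger than their own spread alone would give.

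Genes named were all members with all probes, up to 5 genes of each list under an unadjusted p of 0.05 by size of change, Mbd2, and the 3 nearest profiles to Pgk1; a few of these genes are not reported here. The members and lists were chosen with earlier results of these data known. Alternatives were other normalizations, background corrections and filters, the methods' t-test, array weights, replicate and slide blocks, and leaving out each rat. The authors' PCR has no file used here.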

Additional observations from a re-analysis of the deposited data

How the results depend on the processing

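Across 18 alternatives for each of the 10 members, 169 of 180 log2 fold changes kept their direction and side of the adjusted threshold. Of the others, 5 passed it and 6 changed sign, 5 of them for Pgk1 and 1 for Hk1. The 180 are not independent checks. The t-test, the replicate block and the filter for probes above background on all arrays leave a log2 fold change as it is and can alter only its p. The slide block and the fit within slide 1 gave the same log2 fold changes. Pgk1 was -0.053 with the slide as a block or within slide 1. Leaving out 1 rat at a time gave -0.034 to 0.093 for Pgk1, -0.18 to 0.52 for Hk1, -0.17 to 0.42 for Hk1 relative to Pgk1 and -0.053 to 0.10 for Eno1 relative to Pgk1. It gave 0.28 to 0.61 for Mbd2 relative to Pgk1 and 0.0849 to 0.111 for the SD of Pgk1.

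The number of members at an unadjusted p under 0.05, 2 with all arrays, was 4 with normexp background correction, 5 with array weights, 0 with the slide as a block or within slide 1, and 0 to 2 with 1 rat left out (0 without S3, 1 without C1 or C3). At an adjusted p under 0.05 it was 3 with array weights (Tpi1, Aldoa and Hk2) and 0 to 2 with 1 rat left out. Other listed genes, 15 higher and 5 lower with all arrays, were 7 and 2 with the slide as a block, 3 and 1 within slide 1, 33 and 13 with array weights, and 8 to 26 and 2 to 10 with 1 rat left out. Over all probes, 776 were higher and 562 lower by 2-fold or more at an unadjusted p under 0.05. With scaling to the 75th percentile they were 692 and 759, so the balance of directions turned. Higher probes numbered 359 with normexp, 515 with the methods' t-test, 443 within slide 1, 2000 with array weights and 477 to 2397 with 1 rat left out. Lower probes numbered 342 among probes above background on all 6 arrays, 178 with the t-test, 227 with the slide as a block, 187 within slide 1, 1649 with array weights and 192 to 1725 with 1 rat left out. At an adjusted p under 0.05 there were 0 with all arrays, 1 with scaling to the 75th percentile, 8549 with array weights and 0 to 5553 with 1 rat left out, 41 of them without S1 and 5553 without S2. The weights, estimated gene by gene because the default estimate did not converge, were 0.159 for S2 and 4.90 for S3. The cause was not tested.

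Each cage held 1 S rat and 1 congenic rat, and the labels do not say which arrays came from cage mates. The replicate numbers did not track a pairing in these values, but so few rats cannot exclude one. The deviations of same-numbered rats from the strain means correlated at -0.02, -0.13 and -0.06, and 0 of 6 arrays correlated best with its own number. With the replicate number as a block, 1 member, Tpi1, lay at an unadjusted p under 0.05. Dim probes are limited by signal over background, which all member probes exceeded on all 6 arrays.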
